A study of Mus musculus with 12 samples.

Results

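Growth factor and neurotrophic genes were followed in the hippocampal CA1 subfield of SUMO-KD and wild-type mice after transient forebrain ischemia or sham surgery. The set was Bdnf, Hbegf, Inhba, Fgf2, Gdf15, Lif, Tgfb2 and Ccn1, taken as every probe set whose single gene symbol in the platform annotation was one of these 8 names. Of the 8 genes, 7 had such probe sets, 13 of the 22690 on the array, and they were 7 of the 12394 genes tested. Gdf15 was not analysed here. The genes were chosen by earlier results of these arrays, mainly their intensity difference between ischemia and sham, so that difference is described below without a test.

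The 4 groups were SUMO-KD ischemia, SUMO-KD sham, wild-type ischemia and wild-type sham, with 3 arrays each. Every array carried RNA pooled from CA1 of 2 mouse brains. Ischemic mice had 10 minutes of global cerebral ischemia and 3 hours of reperfusion. SUMO-KD mice carry a knockdown of SUMO, a small ubiquitin-like protein that cells conjugate to target proteins; its driving promoter, and the strain, age and sex of the mice, were not found in the labels. The labels call the samples biological replicates and name no litter or surgery day. All values are linear microarray intensities, in which probe sets of different genes cannot be set against each other, and values below 32 are treated as background. Log2 differences were taken after adding 32 to each intensity, which makes those of dim genes too small.

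Each of these genes encodes a secreted ligand or a precursor of one. BDNF signals through the TrkB receptor and supports survival and plasticity of hippocampal neurons, and its gene is a textbook target of neuronal activity. HB-EGF is shed from the cell surface by proteases and activates EGF receptors. Inhba encodes the activin A subunit; activin signals through type I and type II serine/threonine kinase receptors to SMAD proteins, as does TGF-beta 2, which is secreted in a latent form. LIF, a cytokine of the interleukin-6 family, signals through LIFR and gp130 to STAT3. CCN1 is a matricellular protein that binds integrins, and in many cell types its gene is induced within an hour or so of a stimulus and by the coactivators YAP and TAZ. FGF2 is a mitogen that acts through FGF receptors.

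The sequences just before the transcription start are shown for 5 of the genes, because Ccn1, Bdnf and Lif lay above sham in both genotypes and Inhba and Tgfb2 differed between genotypes. Hbegf also lay above sham in both genotypes, but no window of Hbegf was searched or is shown. Each sequence shown is the 250 bases before a start in RefSeq (GRCm38.p6), read 5′ to 3′ on the strand of the gene. They lie at chr3:145649986-145650235 on the minus strand for Ccn1, chr2:109692186-109692435 on the plus strand for Bdnf, chr11:4257318-4257567 on the plus strand for Lif, chr13:16011601-16011850 on the plus strand for Inhba and chr1:186705990-186706239 on the minus strand for Tgfb2. Capitals mark matches to 5 motifs, each searched on both strands. TGACGT is a core of the cAMP response element. TGANTCA is the site known for AP-1. GGAATG is the site known for TEAD factors, the partners of YAP and TAZ. CACGTG is an E-box. TATAAA is the core promoter element bound by the TBP protein.
Ccn1: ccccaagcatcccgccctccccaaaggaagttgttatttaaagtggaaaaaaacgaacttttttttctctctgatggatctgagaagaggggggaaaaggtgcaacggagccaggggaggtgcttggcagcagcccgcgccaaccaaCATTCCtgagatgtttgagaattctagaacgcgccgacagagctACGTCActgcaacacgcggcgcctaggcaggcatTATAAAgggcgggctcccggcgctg
Bdnf: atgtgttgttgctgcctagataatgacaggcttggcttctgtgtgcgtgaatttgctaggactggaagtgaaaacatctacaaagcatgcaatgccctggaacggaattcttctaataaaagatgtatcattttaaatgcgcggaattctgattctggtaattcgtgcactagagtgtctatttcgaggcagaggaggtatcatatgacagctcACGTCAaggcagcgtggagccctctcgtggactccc
Lif: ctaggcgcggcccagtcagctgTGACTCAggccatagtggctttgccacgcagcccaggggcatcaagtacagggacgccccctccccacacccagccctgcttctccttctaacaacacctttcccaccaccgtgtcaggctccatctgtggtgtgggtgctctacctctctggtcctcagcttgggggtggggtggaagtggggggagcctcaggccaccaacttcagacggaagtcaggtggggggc
Inhba: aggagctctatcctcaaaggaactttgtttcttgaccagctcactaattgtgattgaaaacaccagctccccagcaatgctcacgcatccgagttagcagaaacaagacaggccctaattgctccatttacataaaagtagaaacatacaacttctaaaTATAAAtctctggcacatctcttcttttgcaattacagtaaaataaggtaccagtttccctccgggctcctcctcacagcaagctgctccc
Tgfb2: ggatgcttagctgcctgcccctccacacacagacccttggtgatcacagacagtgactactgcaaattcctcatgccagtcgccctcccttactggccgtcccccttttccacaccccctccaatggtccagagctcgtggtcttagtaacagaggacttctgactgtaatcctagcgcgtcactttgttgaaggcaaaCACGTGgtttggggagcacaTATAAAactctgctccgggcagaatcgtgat
The windows of Ccn1 and Lif lie outside the annotated span of their genes, while those of Bdnf, Inhba and Tgfb2 lie inside it, before the start of a shorter transcript. Whether these 3 windows touch an exon of a longer transcript was not analysed here. Bdnf had 7 starts with a window, and the others had 1 each.

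The TGACGT motif, read here as its reverse complement, ended 31 bases before this start of Bdnf and 54 bases before the start of Ccn1. It was found in 2 of the 12 windows searched for these genes and Fgf2, and in 6.47% of all 32851 such windows of the mouse genome. Of the 7 Bdnf windows only the one shown held it, so its match is not read against that share. The Ccn1 window also held GGAATG as its reverse complement, which 12.6% of windows hold, and TATAAA from 25 to 20 bases before the start, which 12.4% hold. Lif held TGANTCA from 228 to 222 bases before its start; 6.75% of windows hold it, and so did another Bdnf window. Tgfb2 held CACGTG, found in 6.02% of windows, and TATAAA from 31 to 26 bases before its start. In Inhba the only match was TATAAA, from 91 to 86 bases before the start. No marked matches overlap, and a match is a description of letters only.

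Signal levels differed little between arrays: median intensities were 141 to 162, and the share of probe sets under 32 was 22.4% to 28.6%. Sumo3, which checks the genotype labels, ranged from 1879 to 1936 in SUMO-KD ischemia against 3245 to 3518 in wild-type ischemia arrays, and from 1337 to 1689 in SUMO-KD sham against 2247 to 2467 in wild-type sham arrays. The 3′ control for 18S ribosomal RNA ranged from 2829 to 6316 in SUMO-KD ischemia against 5087 to 5814 in SUMO-KD sham, and from 3539 to 4127 in wild-type ischemia against 5764 to 7569 in wild-type sham arrays. The 5′ control did not overlap between surgeries, at 1373 to 4127 in SUMO-KD ischemia against 4194 to 5153 in SUMO-KD sham, and at 1275 to 1660 in wild-type ischemia against 4297 to 6528 in wild-type sham arrays. SUMO-KD ischemia replicate 2 stood apart from replicates 1 and 3 of its group, with 6316 against 2829 and 3552 for the 3′ control and 4127 against 1373 and 1402 for the 5′ control. The part of these controls in the ischemia differences below was not tested. Without that array the SUMO-KD ischemia difference on the log2 scale was 4.86 for Ccn1 in place of 4.30, 1.51 for Hbegf in place of 1.60 and 1.08 for Bdnf in place of 1.11. For Lif, Tgfb2 and Inhba it was 0.58, 0.48 and 0.19 in place of 0.52, 0.52 and 0.17. Markers of CA1 and other pyramidal neurons were present; of that list, 4 of 7 genes were measured. Their summed intensity was 4119 to 6875 in SUMO-KD ischemia against 4060 to 6726 in SUMO-KD sham, and 5303 to 7586 in wild-type ischemia against 8983 to 11180 in wild-type sham arrays. In bulk tissue, fewer cells of a type and less RNA per cell cannot be told apart.

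With ischemia, Ccn1 stood far above sham in both genotypes, Hbegf and Bdnf lay above sham without overlap, Lif and Tgfb2 lay above sham by small margins, and Inhba lay above sham in wild-type while its groups overlapped in SUMO-KD. Ischemia arrays lay wholly above sham arrays for 5 of the 7 measured genes in SUMO-KD, where 13.9% of all genes did so, and for 6 of 7 in wild-type, where 15.6% of all genes did. The genes were chosen for this contrast, so nothing is read from these counts. The median log2 difference over the 7 genes was 0.52 in SUMO-KD and 1.16 in wild-type, beside −0.02 and −0.04 over all genes.

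**Figure D1:**
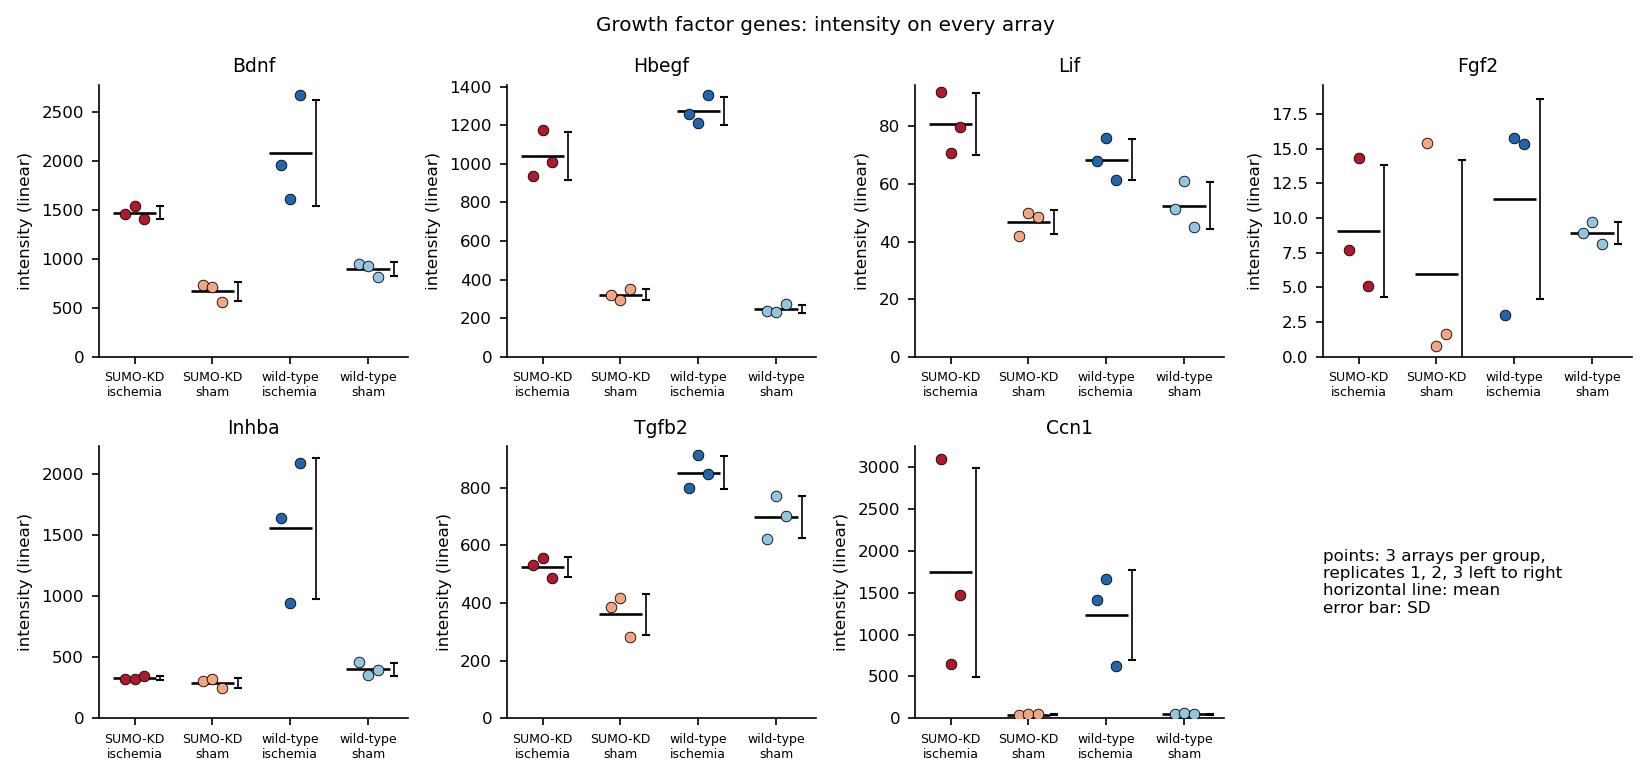
Intensity of the brightest probe set of each of the 7 measured genes on every array (y axis, linear intensity from 0; x axis, group; points, replicates; horizontal line, mean; bar, SD, n = 3). Ccn1 is far above sham in both ischemia groups, Inhba is high only in the wild-type ischemia arrays, and every Tgfb2 value of SUMO-KD is below every wild-type value.

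Ccn1 (probe set 1416039_x_at; chr3:145646971-145649985) showed the widest separation of ischemia from sham among these genes, and also the widest spread between arrays. Its intensity was 3099, 652 and 1478 in SUMO-KD ischemia against 34.6, 46.2 and 48.9 in SUMO-KD sham arrays. In wild-type it was 1412, 1664 and 628 after ischemia against 47.7, 57.9 and 46.1 in sham arrays. Each ischemia array thus lay above each sham array, and replicate 1 of SUMO-KD ischemia was the highest of all. The means were 1743 ± 1245 after ischemia against 43.2 ± 7.60 in sham for SUMO-KD, a ratio of 40.3, and 1235 ± 541 against 50.6 ± 6.38 for wild-type, a ratio of 24.4 (SD, n = 3). The log2 difference was 4.30 in SUMO-KD and 3.83 in wild-type (SE 0.46 each). Leaving out any 1 array kept it between 3.76 and 4.86 in SUMO-KD and between 3.57 and 4.25 in wild-type. The other Ccn1 probe set gave 4.04 and 3.63, with 1988, 505 and 1211 in SUMO-KD ischemia against 24.4, 41.2 and 41.8 in SUMO-KD sham arrays. Its 3 wild-type ischemia arrays had 970, 1109 and 269, against 4.28, 31.9 and 45.8 in wild-type sham arrays. Both probe sets placed the same array lowest in each ischemia group.

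Hbegf (1418350_at; chromosome 18) had intensities of 936, 1176 and 1008 in SUMO-KD ischemia against 320, 294 and 351 in SUMO-KD sham arrays. In wild-type it had 1257, 1209 and 1355 after ischemia against 239, 233 and 272 in sham arrays. The 3 ischemia arrays exceeded the 3 sham arrays in both genotypes, with ratios of means of 3.23 in SUMO-KD and 5.14 in wild-type. The log2 difference was 1.60 in SUMO-KD and 2.22 in wild-type (SE 0.11 each). The dimmer probe set, 1418349_at, averaged 348 ± 50.5 in SUMO-KD ischemia against 120 ± 15.5 in SUMO-KD sham, and 503 ± 44.9 in wild-type ischemia against 156 ± 8.99 in wild-type sham arrays (SD, n = 3). Its log2 differences were 1.32 and 1.51.

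Bdnf (1422169_a_at; chr2:109674700-109727043) had 1461, 1538 and 1410 in SUMO-KD ischemia against 732, 713 and 555 in SUMO-KD sham arrays. In wild-type it had 1957, 1610 and 2672 after ischemia against 950, 923 and 816 in sham arrays. Ischemia and sham did not overlap in either genotype, and the 3 wild-type ischemia arrays spread more widely than the 3 of SUMO-KD. The ratio of means was 2.20 in SUMO-KD and 2.32 in wild-type, and the log2 difference was 1.11 and 1.16 (SE 0.16 each). The second Bdnf probe set, 1422168_a_at, gave 0.70 and 0.88 (SE 0.155 each), with means of 1250 ± 98.6 in SUMO-KD ischemia against 770 ± 176 in SUMO-KD sham, and 1767 ± 263 in wild-type ischemia against 936 ± 37.4 in wild-type sham arrays. Bdnf is transcribed from many starts, and both probe sets carry the suffix for sets that can detect several transcripts of a gene, so the values do not tell its transcripts apart.

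Lif (1421207_at; chr11:4257568-4272514) was dim, at 92.1, 70.7 and 79.9 in SUMO-KD ischemia against 42.1, 49.8 and 48.4 in SUMO-KD sham arrays. In wild-type it was 68.1, 75.8 and 61.5 after ischemia against 51.4, 61.2 and 45.0 in sham arrays. The lowest wild-type ischemia array and the highest wild-type sham array were nearly equal, while the SUMO-KD groups stood clearly apart. The log2 difference was 0.52 in SUMO-KD and 0.25 in wild-type (SE 0.10 each). The other Lif probe set, 1450160_at, ran from 2.88 to 25.6 over all arrays, which is background. No direction is read from it.

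Tgfb2 (1423250_a_at; chr1:186622787-186709697) had 532, 556 and 488 in SUMO-KD ischemia against 385, 417 and 281 in SUMO-KD sham arrays. In wild-type it had 798, 913 and 846 after ischemia against 623, 770 and 700 in sham arrays. Ischemia lay above sham in both genotypes, by a ratio of means of 1.46 in SUMO-KD and 1.22 in wild-type. The log2 difference was 0.52 and 0.28 (SE 0.13 each), and the other 2 probe sets gave 0.54 and 0.40 in SUMO-KD and 0.47 and 0.27 in wild-type.

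Inhba (1422053_at; chr13:16004256-16031609) had 322, 319 and 349 in SUMO-KD ischemia against 302, 325 and 247 in SUMO-KD sham arrays. In wild-type it had 1641, 945 and 2092 after ischemia against 460, 354 and 395 in sham arrays. The SUMO-KD groups overlapped, and the wild-type groups did not. The means were 330 ± 16.7 in SUMO-KD ischemia against 291 ± 40.4 in SUMO-KD sham, a ratio of 1.13, and 1559 ± 578 in wild-type ischemia against 403 ± 53.6 in wild-type sham arrays, a ratio of 3.87 (SD, n = 3). The log2 difference was 0.17 in SUMO-KD and 1.81 in wild-type (SE 0.23 each), and the wild-type value stayed between 1.56 and 2.12 when any 1 array was left out.

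Fgf2 (1449826_a_at; chr3:37348477-37410106) ran from 0.794 to 15.8 over all arrays and lay below 32 in every group. It had 7.73, 14.4 and 5.13 in SUMO-KD ischemia against 15.4, 0.794 and 1.63 in SUMO-KD sham arrays. In wild-type it had 3.05, 15.8 and 15.3 after ischemia against 8.95, 9.72 and 8.15 in sham arrays. The groups overlapped. At this level a change of Fgf2 was not detectable, and no comparison is made for it.

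**Figure D2:**
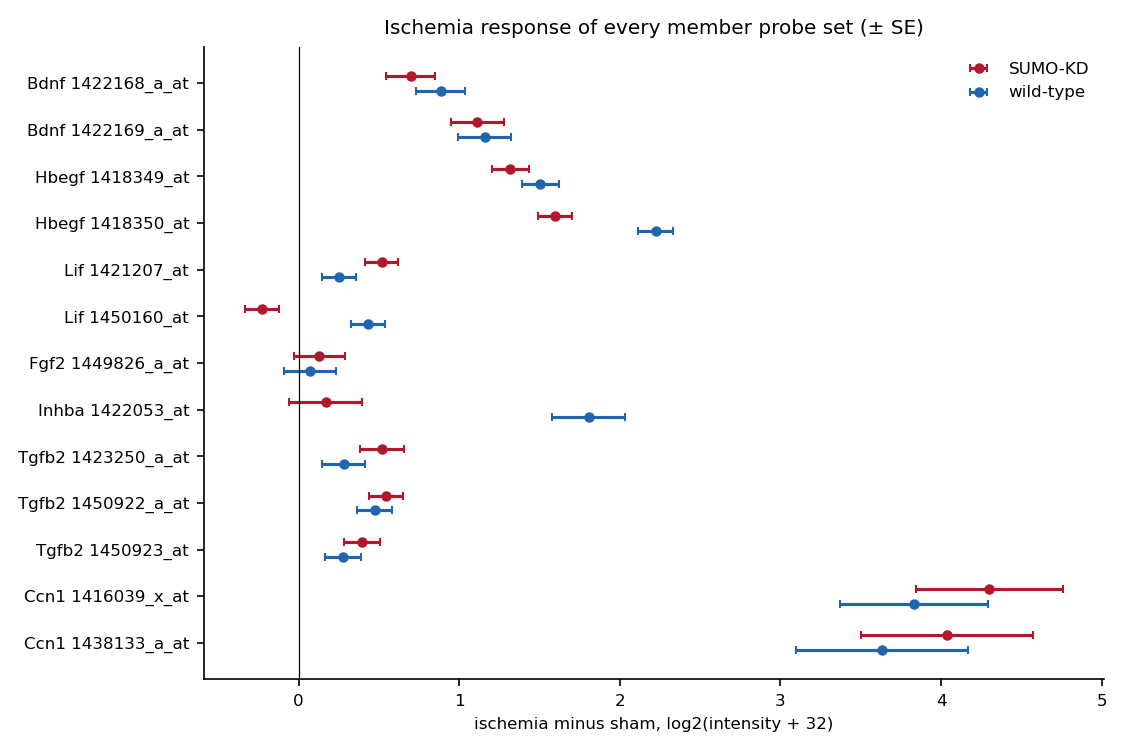
Difference between ischemia and sham of each of the 13 probe sets (x axis, log2(intensity + 32), point with SE; red, SUMO-KD; blue, wild-type). The Ccn1 probe sets lie near 4 in both genotypes, both Bdnf and both Hbegf probe sets lie to the right of 0, and Inhba lies near 0 in SUMO-KD and at 1.81 in wild-type.

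The genotypes were then compared within each surgery, which addresses whether these genes differed between SUMO-KD and wild-type mice. After ischemia, Inhba and Tgfb2 were lower in SUMO-KD than in wild-type. In limma's test over all genes, 2 of the 7 genes were called lower and 0 higher, where 0.557% of all genes were called lower (adjusted p under 0.05). In sham mice 1 of the 7, Tgfb2, was called lower and 0 were called higher, where 0.597% of all genes were called lower. The genotype contrast shares its arrays with the ischemia contrast through which the genes were chosen, so its p-values for these genes are not independent of that choice.

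Inhba after ischemia differed most between the genotypes. The SUMO-KD ischemia arrays, at 319 to 349, stood far under the wild-type ischemia arrays, at 945 to 2092, and the SUMO-KD mean was 0.212 of the wild-type mean. The log2 difference was −2.07 (SE 0.23, 95% interval −2.56 to −1.57, limma adjusted p = 0.00106). It ran from −2.38 to −1.82 over the 12 omissions of 1 array, with limma adjusted p from 4.49e-05 to 0.00789. In sham arrays, SUMO-KD Inhba also lay below wild-type on every array, at 247 to 325 against 354 to 460, and the difference of −0.43 did not pass (95% interval −0.92 to 0.07, limma adjusted p = 0.439).

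Tgfb2 was lower in SUMO-KD under both surgeries and with each of its 3 probe sets. In sham arrays the brightest set averaged 361 ± 71.0 in SUMO-KD against 698 ± 73.4 in wild-type, a log2 difference of −0.91 (SE 0.13, 95% interval −1.20 to −0.61, limma adjusted p = 0.00498). After ischemia it averaged 525 ± 34.8 in SUMO-KD against 852 ± 57.7 in wild-type, a difference of −0.67 (95% interval −0.96 to −0.37, limma adjusted p = 0.0317). Set 1450922_a_at averaged 275 ± 16.7 in SUMO-KD against 411 ± 23.2 in wild-type after ischemia, and 179 ± 25.5 against 288 ± 25.6 in sham arrays. Set 1450923_at averaged 392 ± 10.4 in SUMO-KD against 610 ± 22.9 in wild-type after ischemia, and 293 ± 54.4 against 499 ± 8.01 in sham arrays. No SUMO-KD array reached the lowest wild-type array in any of these comparisons.

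In the fit over all probe sets, 4 of the 13 member probe sets were called after ischemia, where 0.981% of all probe sets were, and 3 in sham, where 1.27% were. The 3 Tgfb2 sets had limma adjusted p of 0.042, 0.0417 and 0.0325 after ischemia and 0.00732, 0.0196 and 0.0102 in sham. The sham difference of Tgfb2 passed in every omission of 1 array, with limma adjusted p up to 0.0262. The difference after ischemia did not pass when any 1 of the 6 ischemia arrays was left out, at limma adjusted p from 0.0593 (without SUMO-KD ischemia replicate 2) to 0.139 (without SUMO-KD ischemia replicate 3), while its size stayed between −0.71 and −0.62. The 4 probe sets called after ischemia became 1 or 2 in every omission except those of SUMO-KD sham replicates 2 and 3 and wild-type sham replicate 2. With only the compared groups in the fit, limma adjusted p was 0.0527 in sham and 0.0581 after ischemia.

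**Figure D3:**
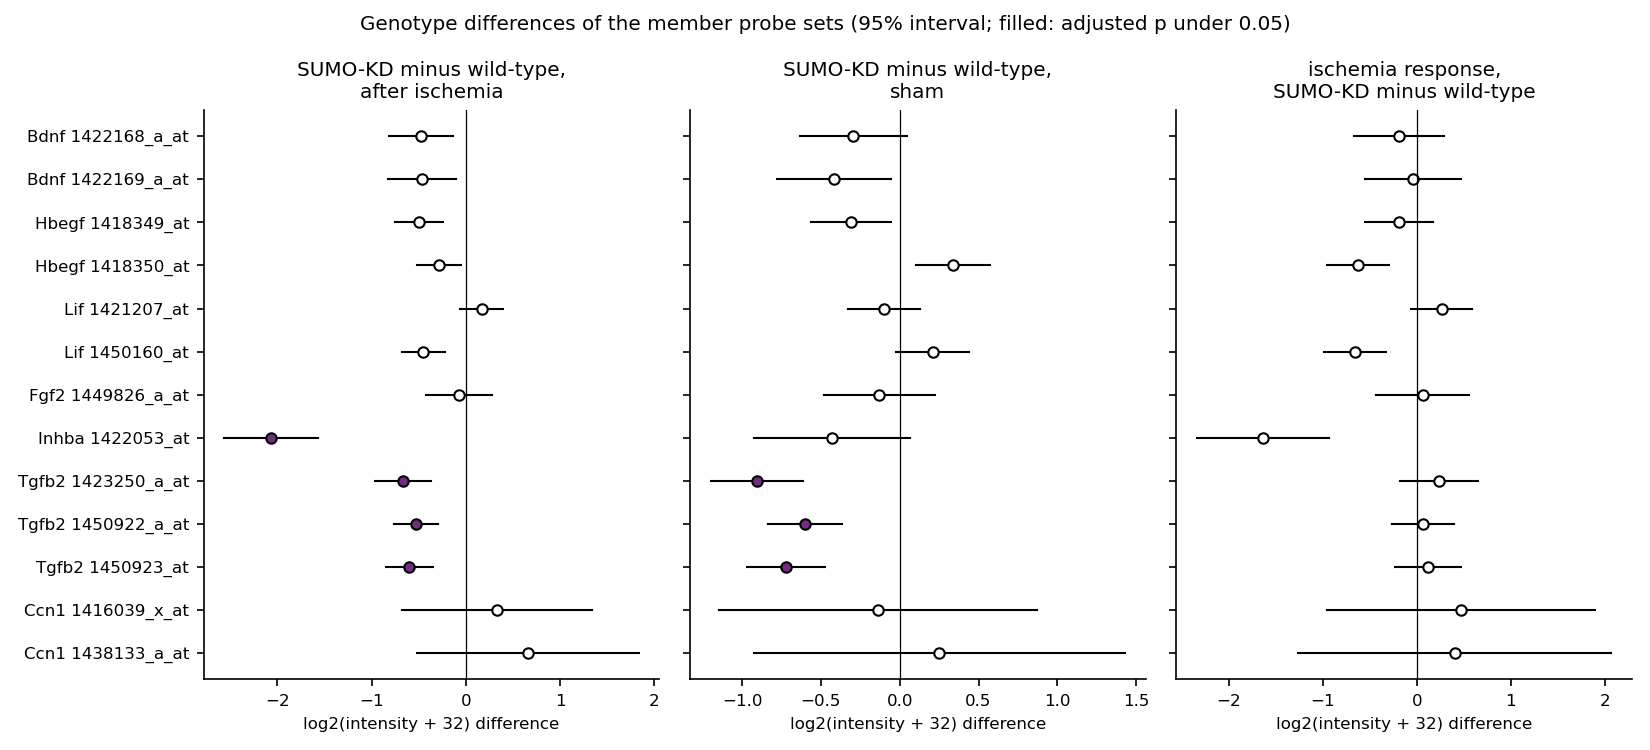
Difference between SUMO-KD and wild-type after ischemia (left), in sham (middle), and between the ischemia responses (right) for each probe set (x axis, log2(intensity + 32), point with 95% interval; filled, limma adjusted p under 0.05 over all probe sets). Inhba is filled after ischemia, the 3 Tgfb2 sets are filled after ischemia and in sham, and no point is filled for the difference of responses.

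Of 15 lists of cell type markers, the summed intensity did not overlap between genotypes for 3 after ischemia, all higher in SUMO-KD, and for 5 in sham, 2 higher and 3 lower in SUMO-KD. Of all genes taken singly, 11.3% lay wholly higher and 8.91% wholly lower in SUMO-KD after ischemia, and 11% and 9.68% in sham. Nothing is read from the list counts alone. In sham arrays Wfs1, a gene of CA1 pyramidal neurons, was lower in SUMO-KD at 1209 ± 143 against 2252 ± 408 in wild-type (log2 difference −0.87, limma adjusted p = 0.0145), the only called gene of the 4 measured pyramidal markers. After ischemia its values were 1164 ± 158 in SUMO-KD and 1467 ± 202 in wild-type, a difference of −0.33 (limma adjusted p = 0.348). Markers of dentate granule cells, 4 of 5 measured, summed to 5028 to 5739 in SUMO-KD against 3404 to 3810 in wild-type after ischemia, and to 6343 to 8106 against 4162 to 5751 in sham arrays. Calb1 alone was called, higher in SUMO-KD under both surgeries, at 3793 against 2079 after ischemia and 4889 against 3180 in sham (log2 differences 0.86 and 0.61, limma adjusted p = 0.00149 and 0.00865). The other 3 markers summed to 1387 to 1663 in SUMO-KD against 1461 to 1600 in wild-type after ischemia, and to 1996 to 2822 against 1205 to 2412 in sham. Prox1 averaged 89.0 in SUMO-KD against 138 in wild-type after ischemia, and 73.0 against 50.1 in sham. In sham Tdo2 ranged from 317.8 to 449.6 in SUMO-KD against 142.5 to 274.5 in wild-type. After ischemia the choroid plexus and ependyma markers, 4 of 5 measured, summed to 20980 to 25530 in SUMO-KD against 15030 to 18820 in wild-type. Ttr averaged 22035 in SUMO-KD against 15714, Foxj1 187 against 182, Folr1 609 against 654 and Kl 779 against 795. The oligodendrocyte markers, 5 of 6 measured, summed to 31750 to 33740 against 28280 to 30670. Mbp averaged 16600 in SUMO-KD against 14831 and Cnp 7946 against 5918. Mobp (6730 against 7410), Mag (927 against 983) and Mog (519 against 559) were lower in SUMO-KD. In each list 0 genes were called. In sham the astrocyte markers, 6 of 6 measured, summed to 21840 to 23650 in SUMO-KD against 17470 to 21470 in wild-type, with Gfap and Aqp4 called higher. The pyramidal, inhibitory neuron and pericyte sums were the 3 lower in SUMO-KD sham. General neuronal markers, 6 of 6 measured, summed to 26090 to 28250 in SUMO-KD against 25720 to 28010 in wild-type after ischemia, with 0 called. The part of these shifts in the Inhba and Tgfb2 differences was not tested.

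The remaining genes did not pass between genotypes. With its brighter probe set, Bdnf lay below wild-type on all 3 SUMO-KD arrays under both surgeries. The difference was −0.46 after ischemia (95% interval −0.82 to −0.10, limma adjusted p = 0.205) and −0.42 in sham (95% interval −0.78 to −0.06, limma adjusted p = 0.278). The dimmer Bdnf set gave −0.48 after ischemia and −0.29 in sham (limma adjusted p = 0.198 and 0.483 over all probe sets). In sham its genotypes overlapped, at 750, 955 and 605 in SUMO-KD against 949, 894 and 966 in wild-type arrays. For Hbegf after ischemia the difference was −0.29 (95% interval −0.52 to −0.06, limma adjusted p = 0.22) with the brighter probe set and −0.50 (limma adjusted p = 0.0819) with the dimmer. In sham the 2 Hbegf probe sets lay in opposite directions, at 0.34 for the brighter and −0.31 for the dimmer (limma adjusted p = 0.196 and 0.29 over all probe sets), each without overlap between genotypes, so no direction is given. Lif differed by 0.17 after ischemia (95% interval −0.06 to 0.39, limma adjusted p = 0.484) and Ccn1 by 0.33 (95% interval −0.67 to 1.34, limma adjusted p = 0.79). The Ccn1 interval spans both a lower and a more than doubled level, and without SUMO-KD ischemia replicate 1 the difference was −0.21.

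Whether the ischemia response itself differed between genotypes was tested as an interaction, the SUMO-KD response minus the wild-type response. Of the 7 genes 0 passed in limma, where 0.0161% of all genes were called and 6.18% had an unadjusted p under 0.05. The interaction shares its arrays with the ischemia contrasts through which the genes were chosen. Inhba lay apart from sham only in wild-type, so its p-values here are not independent of that choice. The interaction of Inhba was −1.64 (SE 0.32, 95% interval −2.34 to −0.94), with an unadjusted p of 0.000297 and a limma adjusted p of 0.23 over all genes. It passed only without wild-type ischemia replicate 2, the lowest of the 3 wild-type ischemia arrays, at −1.95 (limma adjusted p = 0.00607); the other omissions gave limma adjusted p up to 0.479. Hbegf had −0.63 with the brighter probe set (95% interval −0.95 to −0.30, limma adjusted p = 0.431) and −0.19 with the dimmer. The values were −0.05 for Bdnf (95% interval −0.55 to 0.46), 0.27 for Lif (−0.06 to 0.59), 0.24 for Tgfb2 (−0.17 to 0.65) and 0.47 for Ccn1 (−0.95 to 1.90), with limma adjusted p from 0.863 to 0.986.

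The order of the 4 groups by mean was not the same for all genes. For Bdnf, Inhba and Tgfb2 wild-type ischemia was highest and SUMO-KD sham lowest, and for Tgfb2 both SUMO-KD groups lay below both wild-type groups. Hbegf was highest in wild-type ischemia and lowest in wild-type sham with its brighter probe set. For Lif and Ccn1 SUMO-KD ischemia had the highest mean, although its arrays overlapped wild-type ischemia. Over the 12 arrays, on the log2(intensity + 32) scale, the Pearson correlation was 0.93 for Ccn1 with Lif, 0.92 for Ccn1 with Hbegf and 0.88 for Bdnf with Hbegf, while Inhba with Lif gave 0.22. These correlations are descriptions; all genes share the same 12 arrays and 4 groups.

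Among 7855 other genes with a mean intensity of at least 100, the pattern most like that of each gene was found by Pearson r over the 12 arrays. Zfp36 (0.995) and Mtf1 (0.986) ran closest to Ccn1, and Lmna (0.993) and Ccdc86 (0.993) to Hbegf. Kcnk3 (0.981) and Frmd6 (0.980) ran closest to Bdnf, and Socs3 (0.946) and Dusp1 (0.937) to Lif. Acan (0.942) and Zfp275 (0.935) ran closest to Inhba; Acan, the gene of the proteoglycan aggrecan, averaged 240 in SUMO-KD ischemia against 126 in SUMO-KD sham, and 1168 in wild-type ischemia against 137 in wild-type sham arrays. Clmp (0.929) and Rerg (0.915) ran closest to Tgfb2; Clmp averaged 283 in SUMO-KD against 542 in wild-type after ischemia, and 245 against 449 in sham arrays. For Fgf2, at background, the highest r was 0.768.

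Around these ligands, 18 lists of related ligands, receptors, processing enzymes and target genes were counted, with 171 of 192 listed genes measured. With ischemia, 26 rose and 5 fell in SUMO-KD, which is 18.1% of the list genes where 10.7% of all genes were called, and 35 rose and 9 fell in wild-type, 25.7% where 18.5% of all genes were called. The median log2 difference was 0.10 in SUMO-KD and 0.11 in wild-type. Leaving out 1 array changed the falls to as few as 0 in SUMO-KD (without SUMO-KD ischemia replicate 3; 1 or 2 without SUMO-KD ischemia replicate 2 or any SUMO-KD sham array) and 5 in wild-type (without wild-type ischemia replicate 1), and single lists with up to 3 calls ranged from 0 to 5. Among trophic ligands of other families, 2 of 16 rose in SUMO-KD (Pdgfa and Pdgfb) and 5 rose and 1 fell in wild-type. The SUMO-KD call of Pdgfa was lost without SUMO-KD ischemia replicate 2 or 3 or SUMO-KD sham replicate 1 or 2 (limma adjusted p up to 0.0708) and that of Pdgfb without SUMO-KD ischemia replicate 2 (limma adjusted p = 0.0582), and the 5 became 3 without wild-type ischemia replicate 1 or 3. None of 7 other EGF family ligands was called in either genotype, and of 17 other FGF ligands Fgf18 rose in each genotype, by 0.71 in SUMO-KD and 0.67 in wild-type (limma adjusted p = 0.024 and 0.0207; lost in 5 and 3 omissions of 1 array). Fgf17 fell in wild-type by −0.68 (limma adjusted p = 0.0232, lost in 3 omissions), with means under 32 in every group. Of 11 other TGF-beta, activin and GDF ligands, Inhbb, which encodes the activin B subunit, rose in both genotypes, by 0.74 in SUMO-KD (SE 0.15, limma adjusted p = 0.00836) and 0.88 in wild-type (limma adjusted p = 0.00185). With the mean of its probe sets it did not pass (limma adjusted p = 0.0957 and 0.137). Of 4 measured relatives of Ccn1, Ccn2 rose by 1.84 in SUMO-KD (SE 0.21, limma adjusted p = 0.000202) and 1.66 in wild-type (limma adjusted p = 0.000294). Ccn3 fell in wild-type by −0.74 (limma adjusted p = 0.0041) and had −0.24 in SUMO-KD (limma adjusted p = 0.335).

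**Figure D4:**
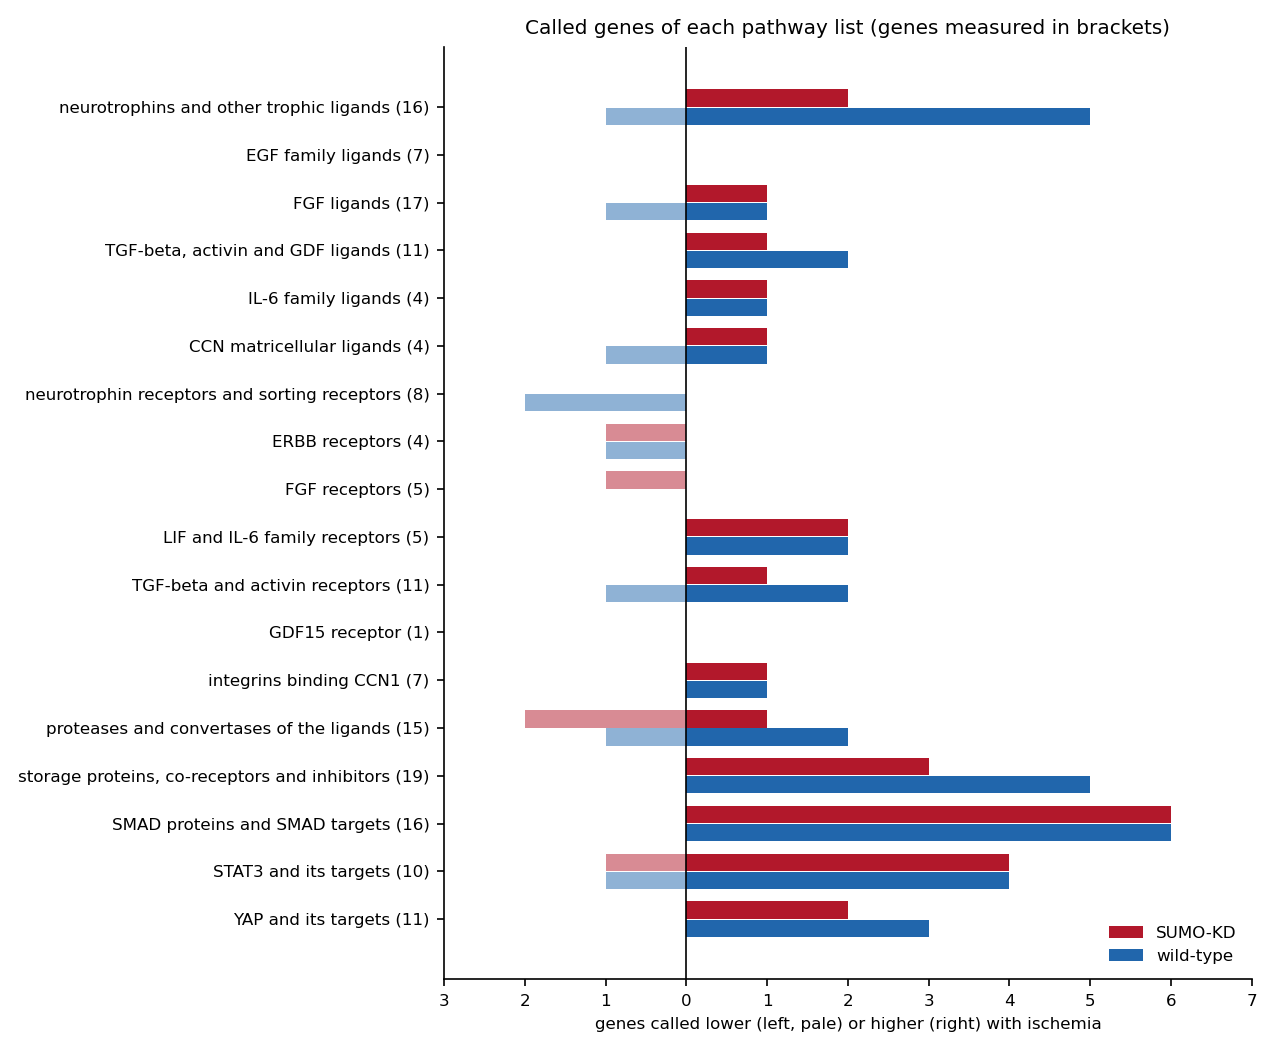
Number of genes of each list called with ischemia (x axis; higher to the right, lower to the left in pale; red, SUMO-KD; blue, wild-type; genes measured in brackets). SMAD proteins and targets had 6 genes higher in each genotype and STAT3 and its targets had 4, while EGF family ligands had 0.

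Among receptors for LIF and its relatives 2 of 5 rose in both genotypes. Osmr, the oncostatin M receptor, had 534, 1316 and 1220 in SUMO-KD ischemia against 220, 229 and 302 in SUMO-KD sham arrays, and 1284, 1175 and 1260 in wild-type ischemia against 185, 227 and 180 in wild-type sham arrays (log2 differences 1.81 and 2.48, limma adjusted p = 0.00127 and 0.000107). Il6ra, the interleukin-6 receptor, rose by 0.997 and 0.981 (limma adjusted p = 0.00302 and 0.00202). Of 8 neurotrophin and sorting receptors 0 changed in SUMO-KD and 2 fell in wild-type, among them Sorcs3 by −0.79 (limma adjusted p = 0.00103; −0.39 in SUMO-KD, limma adjusted p = 0.0596). Of 4 receptors of the ERBB family, Erbb3 fell, by −0.90 in SUMO-KD (limma adjusted p = 0.025, up to 0.0926 with 1 array left out) and −1.44 in wild-type (limma adjusted p = 0.00118). Of 11 TGF-beta and activin receptors, Acvr1, a type I receptor, rose by 0.68 in SUMO-KD (limma adjusted p = 0.0171) and 0.95 in wild-type (limma adjusted p = 0.00166), and neither passed with the mean of its probe sets (limma adjusted p = 0.386 and 0.0681). Eng, an accessory TGF-beta receptor on the same list, fell in wild-type by −0.34 (limma adjusted p = 0.0329, lost in 5 omissions of 1 array). Of 5 FGF receptors, Fgfr3 fell in SUMO-KD by −0.47 (limma adjusted p = 0.0341, lost in 5 omissions), and 0 were called in wild-type. Of the 15 marker lists, 4 had sums wholly below sham in SUMO-KD ischemia and 6 in wild-type ischemia. Of all genes taken singly, 15.9% and 19.5% lay wholly below sham. Microglia markers, 6 of 6 measured, summed to 4043 to 4460 in SUMO-KD ischemia against 5292 to 5521 in SUMO-KD sham, and to 4075 to 4377 in wild-type ischemia against 5120 to 5645 in wild-type sham arrays, with 3 genes lower in each genotype. Endothelial markers, 5 of 6 measured, summed to 1214 to 1321 in SUMO-KD ischemia against 1547 to 2071 in SUMO-KD sham arrays. In wild-type they summed to 1157 to 1593 after ischemia against 1839 to 2313 in sham arrays. In each genotype 2 were called lower, Slco1a4 and Tek. Slco1a4 averaged 385 after ischemia against 885 in sham for SUMO-KD, and 355 against 1038 for wild-type. In the same order, Cldn5 averaged 476 against 384 and 474 against 523. Pecam1 averaged 69.3 against 61.3 and 83.6 against 73.7, and Flt1 290 against 290 and 326 against 349. Oligodendrocyte precursor markers, 3 of 4 measured, summed to 810 to 870 in SUMO-KD ischemia against 1285 to 1493 in SUMO-KD sham arrays. In wild-type they summed to 790 to 1038 after ischemia against 1263 to 1287 in sham arrays. Pdgfra averaged 351 after ischemia against 866 in sham for SUMO-KD, and 339 against 741 for wild-type. In the same order, Cspg4 averaged 113 against 165 and 143 against 170, and Olig2 377 against 358 and 445 against 361. The dentate sum was also below sham in both genotypes, and the pyramidal and pericyte sums in wild-type. Without Calb1 the dentate sum was 1387 to 1663 in SUMO-KD ischemia against 1996 to 2822 in SUMO-KD sham arrays. In wild-type it then overlapped, at 1461 to 1600 after ischemia against 1205 to 2412 in sham arrays. Prox1 was higher with ischemia in wild-type, by 1.03 (limma adjusted p = 0.00473), and had 0.20 in SUMO-KD (limma adjusted p = 0.621). In SUMO-KD the oligodendrocyte and other leukocyte sums were above sham. Of the leukocyte markers, S100a8 averaged 332 in SUMO-KD ischemia against 60.8 in SUMO-KD sham, and S100a9 184 against 21.4. Ptprc averaged 130 against 133, and Cd3e 32.5 against 16.7. The part of these markers in the ischemia values of ligands and receptors was not tested.

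Of the 10 genes of the STAT3 list, 4 rose and 1 fell in each genotype. The fall was lost in 6 omissions of 1 array in SUMO-KD and 9 in wild-type. Socs3, a feedback inhibitor of STAT3 signaling, rose by 2.86 in SUMO-KD (SE 0.29, limma adjusted p = 0.000113) and 2.28 in wild-type (limma adjusted p = 0.000376), and Stat3 by 0.81 and 0.75. The part of LIF in these changes was not tested. Of the 16 SMAD genes 6 rose and 0 fell in each genotype. Among them were Smad7, an inhibitory SMAD, by 0.80 in SUMO-KD (limma adjusted p = 0.00497) and 1.65 in wild-type (limma adjusted p = 2.76e-05), and Pmepa1, by 0.63 and 1.20. Of the 11 genes of the YAP list 2 rose in SUMO-KD and 3 in wild-type, Amotl2 and Wwtr1, the gene of TAZ, in both. Among storage proteins and inhibitors, 3 of 19 rose in SUMO-KD and 5 in wild-type, with Thbs1 and Cd44 in both. Fst, the gene of the activin-binding protein follistatin, rose by 1.06 in wild-type (limma adjusted p = 0.0117) and had 0.36 in SUMO-KD (limma adjusted p = 0.422), with an interaction of −0.70 that did not pass (limma adjusted p = 0.825).

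Between genotypes, 5 list genes were higher and 2 lower in SUMO-KD after ischemia (4.09%, where 1.56% of all genes were called), and 4 were higher and 0 lower in sham (2.34%, where 2.1% were called). Those lower after ischemia were Smad7 and Pim1. Smad7 had 742, 700 and 697 in SUMO-KD ischemia against 1400, 1341 and 1617 in wild-type ischemia arrays, a log2 difference of −0.99 (SE 0.15, limma adjusted p = 0.00788). Pim1, a kinase gene on the STAT3 list, had 193, 115 and 177 in SUMO-KD against 475, 661 and 584 in wild-type ischemia arrays, a difference of −1.66 (SE 0.17, limma adjusted p = 0.001). As for Inhba, the genotypes did not overlap after ischemia; the interactions of Smad7 and Pim1 were −0.85 and −1.47 and did not pass (limma adjusted p = 0.431 and 0.146). Among the 5 higher genes, Ccn3 had 894, 648 and 932 in SUMO-KD against 373, 441 and 355 in wild-type ischemia arrays (1.01, limma adjusted p = 0.00549). The others were Lifr, Acvr2a, Pcsk1 and Ltbp2, whose calls after ischemia were each lost with at least 2 of the single arrays left out. The 7 calls after ischemia became 3 without SUMO-KD ischemia replicate 3 or wild-type ischemia replicate 1 and 4 without SUMO-KD ischemia replicate 1, and the 4 in sham became 2 without any 1 of the 3 SUMO-KD sham arrays, wild-type sham replicates 1 and 3 or wild-type ischemia replicate 1. For the interaction 0 list genes passed in limma.

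**Figure D5:**
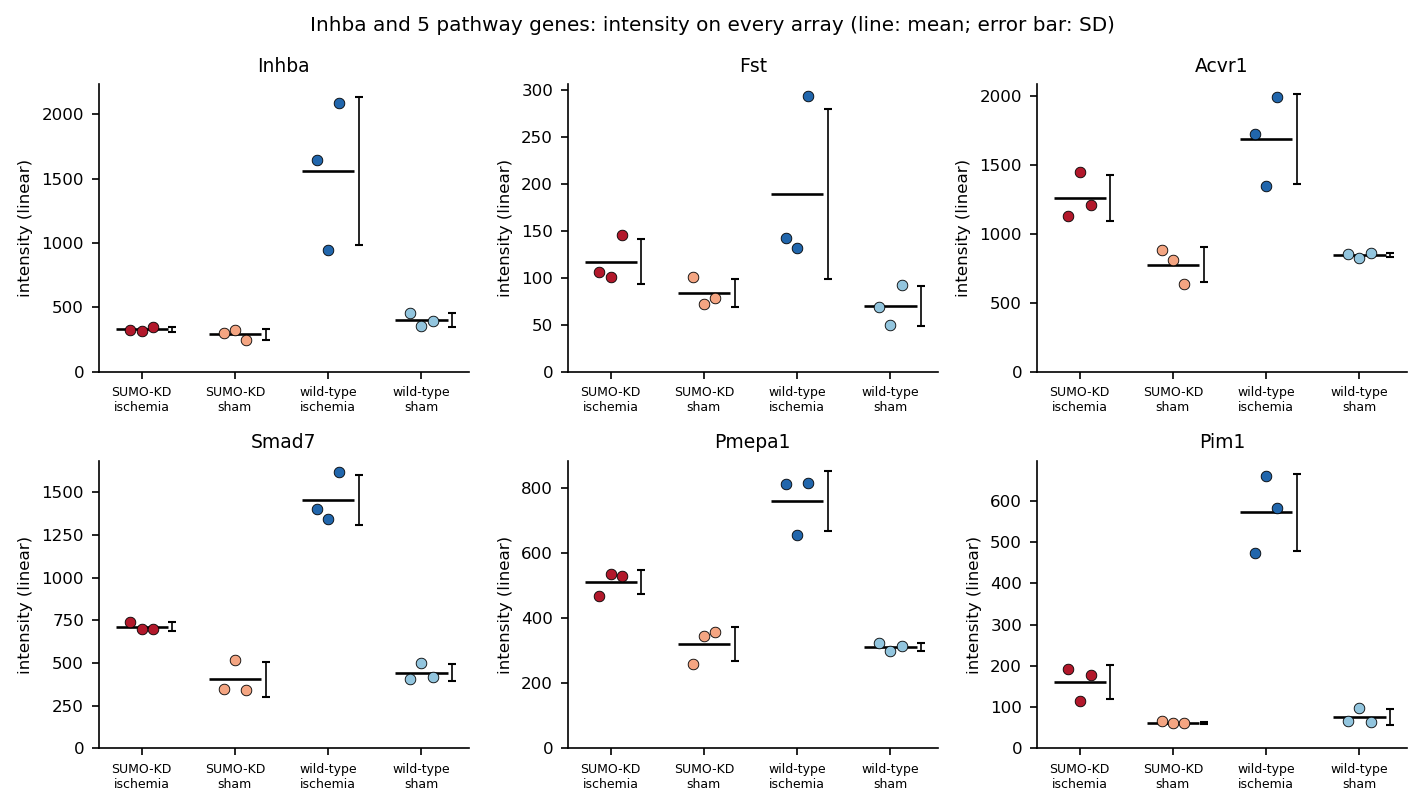
Intensity on every array of Inhba and of Fst, Acvr1, Smad7, Pmepa1 and Pim1 (y axis, linear intensity from 0; x axis, group; points, replicates; line, mean; bar, SD, n = 3). For Inhba, Smad7, Pmepa1 and Pim1 every wild-type ischemia array lies above every SUMO-KD ischemia array, while the Acvr1 arrays of the 2 genotypes overlap.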

How the data were processed

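RNA was extracted with Trizol, amplified and biotin-labelled with a MessageAmp Premier kit and hybridised to 12 Affymetrix arrays, per the labels' protocols. The deposited intensity values are linear, 1 per probe set and array. Per the submitters' processing notes, Partek 6.6 and RMA were used, without saying which produced these numbers. On every array the mean after removing 2% of values at each end was 500.16 to 500.18, so the arrays had been scaled to a common level. No detection call was used.

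Of 22690 probe sets, 20393 had 1 gene symbol, 691 several and 1606 none listed, among them 64 controls. For each gene the probe set with the highest mean was used, giving 12394 genes. Means of the 4 groups were fitted to log2(intensity + 32) with limma 3.58.1 in R 4.3.3, and p-values were two-sided, Benjamini-Hochberg adjusted over all genes, and called under 0.05. A second fit held all 22626 non-control probe sets. The number of arrays limits the precision. On simulated data, 88% of 100 genes with a log2 change of 1 and 100% of 100 with a change of 2 were recovered for ischemia in wild-type among 12394 genes.

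The members and lists were chosen with earlier results of these data known, as were the offset and the decision not to compare Fgf2. In each list, up to 3 genes called for ischemia in each genotype, by size, and all called for genotype were eligible to be named, and 2 like genes per member were named by Pearson r. Motifs were searched in RefSeq windows of 250 bases (GRCm38.p6). Alternatives were offsets of 16, 64 and 0, averaged probe sets, each probe set alone, and removal of probe sets ending in _s_at, _x_at or _a_at. Others were a dim filter at a mean log2 of 5, quantile normalization, median centring and a replicate block. Fits on the compared groups, trended robust moderation and omission of each array were also run.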

Additional observations from a re-analysis of the deposited data

How the results depend on the processing

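Of 18 counts of called genes, 4 moved by less than 1.5 times in every alternative. With only the compared groups in the fit, genes called between genotypes fell to 48 after ischemia and 130 in sham, against 193 and 260. Pathway genes called between genotypes then numbered 2 and 1, against 7 and 4; members called 1 and 0, against 2 and 1; and member probe sets 1 and 0, against 4 and 3. Pathway genes lower with ischemia numbered 3 in SUMO-KD and 4 in wild-type, against 5 and 9. With no offset the counts were 95 after ischemia and 156 in sham for all genes, 3 and 2 for pathway genes, 1 for members and 2 for member probe sets after ischemia, 3 for pathway genes lower with ischemia in SUMO-KD, and 0 for the interaction. With an offset of 16, 2 pathway genes were called in sham and 2 member probe sets after ischemia; with every probe set alone, 2 pathway genes were called in sham. Without probe sets ending in _s_at, _x_at or _a_at, 2 member probe sets were called after ischemia and 1 in sham, and the interaction had 1 gene. That removal took Tgfb2 sets 1423250_a_at and 1450922_a_at, called under both surgeries in the main fit, out of the test. The causes of the other changes were not tested.

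In 18 same-numbered pairs of arrays from different groups the correlation of deviations ran from −0.17 to 0.28, with 5 over 0.1. Differently numbered pairs ran from −0.36 to 0.34. The highest same-numbered values were among replicate 1 arrays, at 0.28 for wild-type ischemia with SUMO-KD sham and 0.25 with SUMO-KD ischemia. Whether replicate numbers mark a shared batch cannot be told from these values. With the replicate number as a block, 1297 genes were called with ischemia in SUMO-KD and 2297 in wild-type, 180 between genotypes after ischemia and 257 in sham, 1 for the interaction, and 2 member probe sets after ischemia; the 2 members after ischemia and the 1 in sham were also called.

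Leaving out each array in turn, genes called ranged from 763 (without SUMO-KD ischemia replicate 2) to 1409 for ischemia in SUMO-KD, 1548 to 2308 in wild-type, 60 (without SUMO-KD ischemia replicate 3) to 209 between genotypes after ischemia, 112 (without SUMO-KD sham replicate 3 or wild-type sham replicate 1) to 270 in sham and 0 to 5 (without wild-type ischemia replicate 2) for the interaction. Pathway genes higher with ischemia ranged from 19 to 27 in SUMO-KD and 27 to 37 in wild-type, and lower from 0 to 6 and 5 to 9. Pathway genes called between genotypes ranged from 3 to 7 after ischemia and 2 to 4 in sham, with 0 in all for the interaction. Members called ranged from 1 to 2 after ischemia and 0 to 1 for the interaction, with 1 in all in sham; member probe sets ranged from 1 to 4, 0 to 1 and 2 to 3.

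None of the differences that turned sign had passed in the main fit. The Bdnf interaction ranged from −0.21 to 0.15, at 0.024 without SUMO-KD sham replicate 1, 0.0060 without SUMO-KD sham replicate 2, 0.15 without wild-type ischemia replicate 3, and 0.019 when wild-type sham replicate 3 was left out. With the mean of its probe sets, 1 of which lies at background, Lif was −0.14 after ischemia, 0.055 in sham and −0.20 for the interaction, and Ccn1 was 0.057 in sham. Ccn1 after ischemia ranged from −0.21 to 0.89, at −0.21 without SUMO-KD ischemia replicate 1 and at −0.082 when wild-type ischemia replicate 3 was left out, and its interaction from −0.071 to 1.03, at −0.071 without SUMO-KD ischemia replicate 1. With each array centred on its median, 112 genes were higher and 98 lower in SUMO-KD after ischemia, against 124 and 69.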

Other observations

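Pcsk1, which encodes a convertase of prohormones, had 216, 210 and 237 in SUMO-KD sham against 71.9, 55.7 and 32.4 in wild-type sham arrays, a log2 difference of 1.60 (limma adjusted p = 0.000451), and 138, 126 and 116 in SUMO-KD ischemia against 58.3, 52.0 and 77.5 in wild-type ischemia arrays (0.75, limma adjusted p = 0.0399, lost without any of 9 single arrays). Ltbp2, a gene of the latent TGF-beta binding protein family, had 87.1, 111 and 161 in SUMO-KD ischemia against 24.1, 5.59 and 38.5 in wild-type ischemia arrays (1.49, limma adjusted p = 0.016, lost without SUMO-KD ischemia replicate 3 or wild-type ischemia replicate 1). Neurod1 and Sox11 were the 2 genes called for the interaction among all genes, at −1.39 and −2.04 (limma adjusted p = 0.022 each), and 0 genes passed in every omission of 1 array except SUMO-KD sham replicate 2 and wild-type ischemia replicates 1 and 2.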
